A study of Mus musculus with 6 samples.

Results

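The genes described here are 8 transcription factor genes known to respond to bone morphogenetic proteins (BMPs): the homeobox genes Msx1 and Msx2, the basic helix-loop-helix genes Atoh8 and Hey1, the zinc finger genes Gata2 and Gata3, and the T-box genes Tbx2 and Tbx3. They were taken by name from the deposited HTSeq table of 17551 genes, which held all 8. RNA was measured in 6 libraries of mouse neurospheres, free-floating cultures enriched for neural stem and progenitor cells, on a C57BL/6 background and grown with N2, B27, EGF and FGF. The 3 G328V libraries carry the genotype label ACVR1 G328V and the series code NPAC, and the 3 WT libraries carry the label ACVR1 WT and the code NP. The codes are not spelled out in the labels, so no further allele that both groups may carry is named here. The labels call the 3 libraries of a group biological replicates without naming the animals or cultures, and a p-value here speaks only of the spread among the samples, which may be technical.

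Acvr1 encodes a type I BMP receptor. Such receptors phosphorylate SMAD1, SMAD5 and SMAD9, which enter the nucleus with SMAD4 and switch on early target genes, many of them transcription factors and feedback inhibitors. In the embryonic nervous system BMPs pattern the dorsal neural tube and the neural crest, where Msx genes are classic targets. Atoh8 and Hey1 are better known as BMP targets of other tissues, including endothelium, and Gata and Tbx genes as targets in ectoderm, heart and limb.

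None of the 8 genes passed the test over all genes, yet for 3 of them every G328V library lay above every WT library. These were Tbx2, Msx2 and Atoh8, with fitted folds of 31.8, 23.7 and 22.0. Hey1 and Gata2 had positive differences with overlapping groups, and Msx1, Gata3 and Tbx3 showed no direction that held when single libraries were left out. Levels are given in CPM, counts scaled to a common library total with TMM factors that adjust for library composition, and values per library follow the replicate names 1, 2 and 3 of G328V and 1, 3 and 70A of WT. Differences are log2 of G328V over WT from edgeR's quasi-likelihood test, with Benjamini-Hochberg adjustment over 14643 genes and a threshold of 0.05 on the adjusted p. edgeR called 0 of the 8 members, against a background of 0% of all genes tested, and each member had an adjusted p of 0.997. At an unadjusted p under 0.05 edgeR counted 4 of 8, all higher in G328V, where 1.88% of all genes were counted in that direction and 4.06% in either. The limma-voom test called 0 of 8, with 2 at an unadjusted p under 0.05, Hey1 (0.0280) and Atoh8 (0.0331), and 4.03% of all genes. DESeq2 gave Gata3 no p with all libraries, so Gata3 could not be called by it. It called 2 of 8, Tbx2 and Msx2, both higher, where it called 0.569% of genes as higher. It gave 5 of 8 an unadjusted p under 0.05, beside 6.95% of the 16521 genes to which it gave a p. Non-overlapping groups with G328V higher were found for 3 of 8 members and 5.25% of all genes, and with G328V lower for 0 members and 4.45% of genes. The difference was positive for 6 of 8 members and 49.7% of all genes, and the median was 2.85 for the members and -0.0039 for all genes tested. Since the genes were listed with earlier results of these data known, these shares are descriptions.

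**Figure D1:**
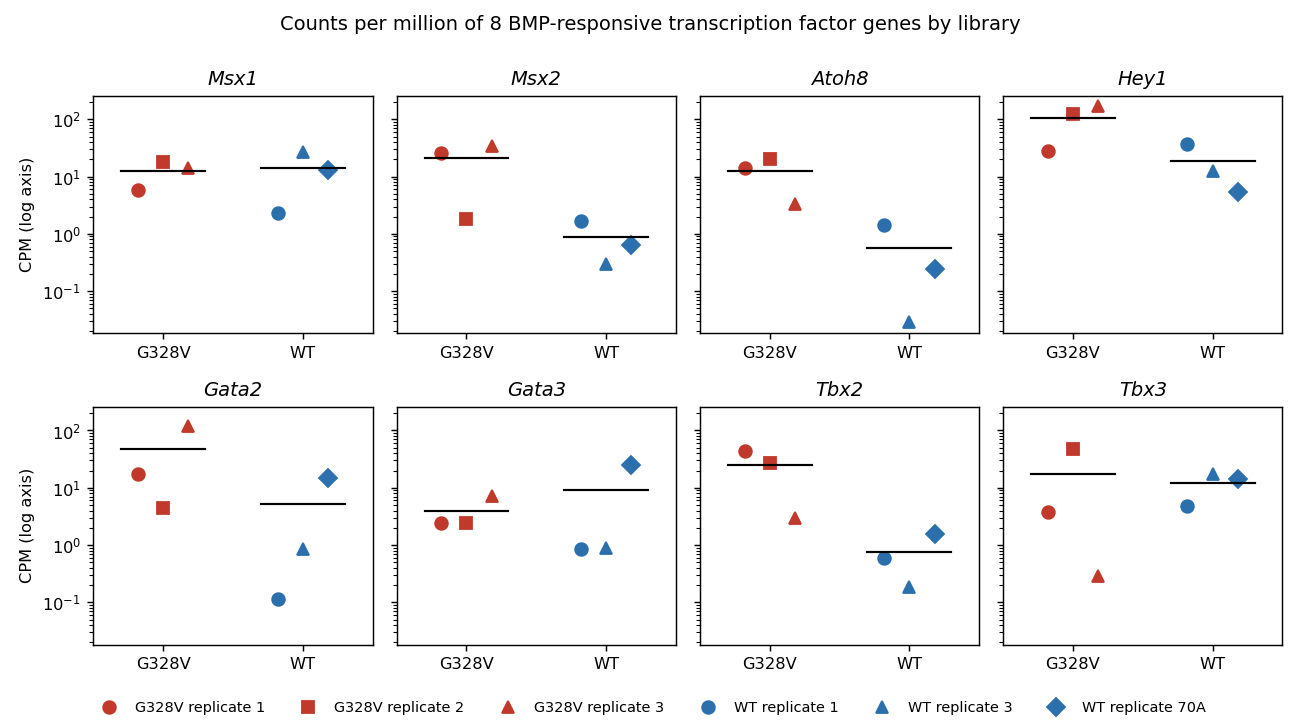
CPM (log axis) of each of the 8 genes in the 3 G328V libraries (red, left) and the 3 WT libraries (blue, right), with symbols for replicate numbers and a black line at the arithmetic mean of each group. In Msx2, Atoh8 and Tbx2 all red points lie above all blue points, the smallest gap being that of Msx2, at 1.79 against 1.70 CPM.

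Total counts ran from 115953495 to 182626231 in G328V and from 120457925 to 191115532 in WT. Acvr1 itself was at 244, 250 and 650 CPM in the G328V libraries, against 42.4, 100 and 90.7 CPM in the WT libraries, and had an edgeR adjusted p of 0.997. Its HTSeq counts per Cufflinks fragment were 1.19, 1.21 and 1.13 in the G328V libraries, against 1.94 in each WT library, and the files hold no allele-specific counts. The X-linked Xist lay at 443 to 795 CPM in G328V, against 0.250 to 1.18 CPM in WT, and the Y-linked Ddx3y at 0 to 0.0326 CPM in G328V, against 17.7 to 51.0 CPM in WT. The 2 groups were thus split by these sex-linked genes as by genotype, and the effects of sex and genotype cannot be told apart in any difference below. WT replicate 1 stood apart from the other libraries, with 51237 counts of Olig2, an oligodendrocyte lineage factor, against at most 161 elsewhere. In such bulk samples fewer expressing cells and less RNA per cell cannot be told apart.

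Msx2 encodes a homeodomain repressor of neural crest, skull and limb, and lies on chromosome 13 from 53466884 to 53473074 on the minus strand (GRCm38). It was at 26.0, 1.79 and 34.6 CPM in the G328V libraries, against 1.70, 0.301 and 0.632 CPM in the WT libraries. G328V replicates 1 and 3 were far above every other library, while G328V replicate 2 lay level with WT replicate 1. The ratio of those neighbours, 215 against 209 counts, was 1.05, with a 95% counting interval of 0.865 to 1.28. This interval, like those given below, takes each count as independent. The counts came from 107 and 106 fragments, so it is too narrow, and it leaves out replicate spread. The group means were 20.8 ± 17.0 CPM in G328V and 0.877 ± 0.730 CPM in WT (SD, n = 3 each). The log2 difference was 4.57 ± 1.28 (SE) with an unadjusted edgeR p of 0.0113, and DESeq2 gave an adjusted p of 0.00811. By limma-voom it was 4.44 at an unadjusted p of 0.0979. DESeq2 no longer called Msx2 when replicate 1 or 3 of G328V, or replicate 3 or 70A of WT, was left out (adjusted p = 0.0525 to 0.101).

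Msx1, the closely related homeobox gene of the same tissues, lies on chromosome 5 from 37820485 to 37824583 on the minus strand. It was at 5.90, 17.8 and 13.9 CPM in the G328V libraries, against 2.28, 26.4 and 12.8 CPM in the WT libraries. The groups overlapped fully, with WT replicates holding both the lowest and the highest level. The difference was -0.15 ± 0.88 (SE), at an unadjusted edgeR p of 0.874. Leaving out WT replicate 3 gave 0.70 and leaving out G328V replicate 1 gave 0.19, so the sign for Msx1 turned with single libraries.

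Msx1 also differed from the other members in how its counts relate to fragments. The deposited Cufflinks table gives 97, 309 and 389 fragments of Msx1 in the G328V libraries, against 24, 806 and 333 in the WT libraries. HTSeq counts per Cufflinks fragment were therefore 10.4, 6.92 and 6.56 in G328V and 11.7, 5.77 and 6.71 in WT. The other 7 members lay between 1.47 and 2.05, and library medians over 8924 well-counted genes lay between 1.95 and 1.96. Summed over the 6 libraries Msx1 had 6.57 counts per fragment, rank 9 of 11239 genes with at least 500 counts on average, of which 13 exceeded 4. The order of the 6 libraries was the same in both tables, with WT replicate 3 highest and WT replicate 1 lowest, and the edgeR difference from the Cufflinks table was -0.35 ± 1.16 (SE). The deposited files do not show which reads made up the extra counts.

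**Figure D2:**
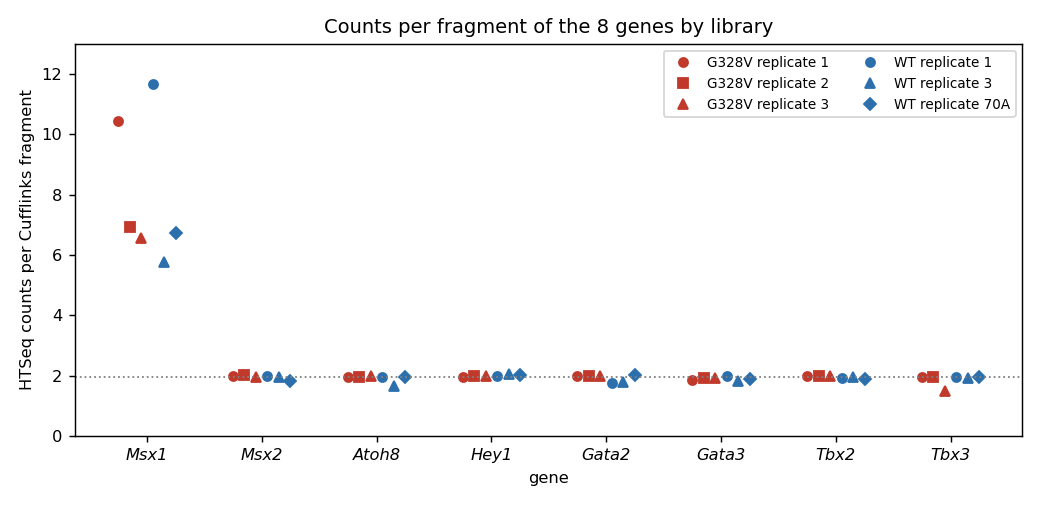
HTSeq counts divided by Cufflinks fragments for each of the 8 genes in each library, G328V in red and WT in blue, with a dotted line at the median over the libraries of about 1.96. All 6 Msx1 points lie between 5.77 and 11.7, while the points of the other 7 genes lie near the line, the lowest being 1.47 for Tbx3 in G328V replicate 3, which rests on 53 counts.

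Atoh8, a basic helix-loop-helix factor, lies on chromosome 6 from 72206177 to 72235577 on the minus strand. It was at 14.3, 20.0 and 3.33 CPM in the G328V libraries, against 1.43, 0.0284 and 0.247 CPM in the WT libraries. The lowest G328V library was 2.33 times the highest WT library (95% counting interval 1.97 to 2.77), and WT replicate 3 held 5 counts. The group means were 12.5 ± 8.46 CPM in G328V and 0.569 ± 0.754 CPM in WT (SD, n = 3 each), a log2 difference of 4.46 ± 1.55 (SE). The unadjusted edgeR p was 0.0267, and DESeq2 did not call it with all libraries (adjusted p = 0.0536). Without WT replicate 1 the edgeR difference was 6.47 and DESeq2 called it (adjusted p = 3.93e-06), as it did without G328V replicate 3 (0.0406) or WT replicate 3 (0.0350). DESeq2 did not call Atoh8 without G328V replicate 1 (adjusted p = 0.224), G328V replicate 2 (0.240) or WT replicate 70A (0.187). The unadjusted edgeR p was 0.0548 to 0.0780 without these libraries and 0.00667 to 0.0277 without the others.

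Hey1, a helix-loop-helix repressor that Notch signalling also induces, lies on chromosome 3 from 8663359 to 8667256 on the minus strand. Its mean level per length was the highest of the 8 in G328V, at 32.6 ± 21.9 CPM per kilobase of exon, against 5.69 ± 5.16 CPM per kilobase in WT (SD, n = 3 each). In G328V replicate 1 alone Tbx2 was above it, at 11.95 against 8.55 CPM per kilobase. Its level was 27.9, 124 and 168 CPM in the G328V libraries, against 37.5, 12.7 and 5.41 CPM in the WT libraries. G328V replicates 2 and 3 lay above every WT library, and G328V replicate 1 lay below WT replicate 1. The difference was 2.52 ± 0.93 (SE) with an unadjusted edgeR p of 0.0342. Without WT replicate 1 it was 3.54 by edgeR, and DESeq2 then called Hey1 (adjusted p = 0.00224), which it did not with all libraries (0.268). Nor did DESeq2 call Hey1 without any other single library (adjusted p = 0.0943 to 0.672). The unadjusted edgeR p was 0.0721 to 0.0956 without G328V replicate 2 or 3 or WT replicate 3 or 70A. It was 0.0152 without G328V replicate 1 and 0.0101 without WT replicate 1.

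The promoters of Msx2 and Atoh8 are shown because these are the members with non-overlapping groups that have an entry in the RefSeq promoter table (GRCm38.p6, 250 bases before to 50 after the start site, transcribed strand, 5′ to 3′). Msx2 is chr13:53472731-53473030 (minus strand) and Atoh8 is chr6:72235528-72235827 (minus strand). Capitals mark GGCGCC, the GC-rich box that SMAD1 and SMAD5 bind, and its variant GGAGCC, searched on both strands, so that GGCTCC is the variant read on the other strand.
Msx2: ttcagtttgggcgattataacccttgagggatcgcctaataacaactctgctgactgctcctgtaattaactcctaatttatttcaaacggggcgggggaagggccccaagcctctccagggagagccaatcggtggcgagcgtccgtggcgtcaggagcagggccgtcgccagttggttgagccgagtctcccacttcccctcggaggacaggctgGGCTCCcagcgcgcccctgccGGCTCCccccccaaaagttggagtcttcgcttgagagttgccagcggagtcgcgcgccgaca
Atoh8: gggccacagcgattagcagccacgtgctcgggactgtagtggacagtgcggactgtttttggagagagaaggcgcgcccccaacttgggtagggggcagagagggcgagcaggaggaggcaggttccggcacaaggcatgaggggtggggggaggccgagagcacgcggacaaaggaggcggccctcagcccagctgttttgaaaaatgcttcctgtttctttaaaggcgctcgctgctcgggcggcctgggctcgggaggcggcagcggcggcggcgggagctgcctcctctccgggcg
The Msx2 window held the variant at 2 places, starting 33 and 12 bases before the start site, and no GGCGCC. The Atoh8 window held neither. Of all 32851 promoter windows of this length, GGAGCC was in 30.8% and GGCGCC in 11.9%.

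Gata2, a zinc finger factor of blood progenitors and of some inhibitory neurons, lies on chromosome 6 from 88193891 to 88207032 on the plus strand. It was at 17.7, 4.52 and 119 CPM in the G328V libraries, against 0.114, 0.852 and 14.6 CPM in the WT libraries. WT replicate 70A lay above G328V replicate 2 and close to G328V replicate 1, so the groups overlapped through 1 WT library. The difference was 3.18 ± 1.93 (SE), at an unadjusted edgeR p of 0.150. It ranged from 1.09 without G328V replicate 3 to 6.59 without WT replicate 70A, and without that WT library DESeq2 called it (adjusted p = 0.00117).

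Gata3, the paralogue that also directs T cell and ear development, lies on chromosome 2 from 9857078 to 9890034 on the minus strand. It was at 2.47, 2.39 and 7.12 CPM in the G328V libraries, against 0.869, 0.892 and 25.4 CPM in the WT libraries. WT replicate 70A held the highest level, and every G328V library lay above the other WT libraries. The difference was -1.18 ± 1.44 (SE), at an unadjusted edgeR p of 0.442, and 2.18 without WT replicate 70A. Gata3 shares exonic positions with 9230102O04Rik on the same strand and with Gm13256 on the other strand. Neither of these genes has a row of its own in the HTSeq table. No source used here says whether counting used the strand, which leaves the counts of Gata3 uncertain.

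The Gata2 and Gata3 promoters are shown because each holds the full GC-rich box, in capitals as above. Gata2 is the inner of its 2 listed promoters, chr6:88198414-88198713 (plus strand), and Gata3 is chr2:9878551-9878850 (minus strand).
Gata2: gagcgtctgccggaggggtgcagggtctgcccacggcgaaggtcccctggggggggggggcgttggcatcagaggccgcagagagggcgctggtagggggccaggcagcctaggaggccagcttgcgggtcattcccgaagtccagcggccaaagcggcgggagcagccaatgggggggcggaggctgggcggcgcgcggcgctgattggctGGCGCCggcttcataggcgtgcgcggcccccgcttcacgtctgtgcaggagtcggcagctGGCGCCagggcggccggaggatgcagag
Gata3: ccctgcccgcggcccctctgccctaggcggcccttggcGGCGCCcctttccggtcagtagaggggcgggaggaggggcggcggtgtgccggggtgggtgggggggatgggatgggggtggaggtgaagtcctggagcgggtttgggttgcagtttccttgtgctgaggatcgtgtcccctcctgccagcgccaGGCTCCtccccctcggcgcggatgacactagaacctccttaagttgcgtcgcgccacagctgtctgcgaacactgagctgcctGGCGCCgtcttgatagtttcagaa
GGCGCC began 38 bases before and 23 bases after the start site of Gata2, and 212 bases before and 27 bases after that of Gata3. The outer Gata2 promoter and the Msx1 promoter held no GGCGCC, and Hey1, Tbx2 and Tbx3 had no entry. The longer BMP-responsive element, in which GGCGCC is followed at a fixed spacing by the SMAD4 box GTCT, was in 24 of all 32851 windows and in none of the 6 windows of the 5 members. The member windows were 61.0% to 73.7% G and C, above the median of 52.7% over all windows, which bears on how often a GC-rich motif is met.

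Tbx2, a T-box repressor of heart, limb and eye development, lies on chromosome 11 from 85832551 to 85841948 on the plus strand. It was at 43.3, 27.4 and 3.02 CPM in the G328V libraries, against 0.593, 0.188 and 1.53 CPM in the WT libraries. G328V replicates 1 and 2 stood well above all others, and G328V replicate 3 was 1.97 times the highest WT library (95% counting interval 1.70 to 2.29). The group means were 24.6 ± 20.3 CPM in G328V and 0.772 ± 0.691 CPM in WT (SD, n = 3 each). By edgeR, Tbx2 had the largest difference and the smallest p of the 8, at 4.99 ± 1.29 (SE), an unadjusted edgeR p of 0.00768 and a DESeq2 adjusted p of 0.00151. DESeq2 kept this call without each library in turn except G328V replicate 1. By limma-voom Tbx2 differed by 4.68 at an unadjusted p of 0.111, and Atoh8 had the largest difference, 5.46.

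Tbx3, a close relative of Tbx2 that also encodes a repressor, lies on chromosome 5 from 119670669 to 119684724 on the plus strand. It was at 3.81, 47.5 and 0.288 CPM in the G328V libraries, against 4.83, 17.4 and 14.2 CPM in the WT libraries. The G328V libraries held both the highest and the lowest level, 165-fold apart, while the WT libraries lay within 3.60-fold. The difference was 0.50 ± 1.53 (SE), at an unadjusted edgeR p of 0.754, and -2.57 without G328V replicate 2. Exons of Tbx3 overlap the antisense gene Tbx3os1, which has no row in the HTSeq table either, so the limit on strand holds here too.

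**Figure D3:**
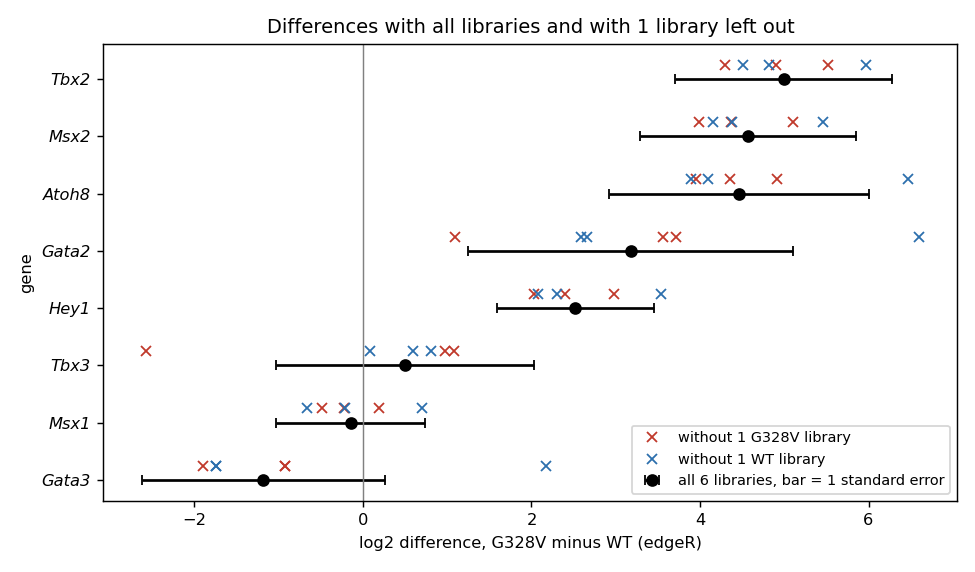
The log2 difference, G328V minus WT, of each gene by edgeR with all 6 libraries (black, bars of 1 standard error) and with 1 library left out (crosses, red for a G328V library, blue for a WT library). Crosses stay to the right of 0 for Tbx2, Msx2, Atoh8, Gata2 and Hey1 and fall on both sides for Tbx3, Msx1 and Gata3.

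Leaving out single libraries changed which members separated. Genes already separated with all 6 libraries, Msx2, Atoh8 and Tbx2, remain so by construction, so these sets say nothing of their stability. Hey1 separated as well without G328V replicate 1 or WT replicate 1, Gata2 without G328V replicate 2 or WT replicate 70A, and Gata3 without WT replicate 70A. The largest number was 5 of 8, without WT replicate 70A, where 9.68% of all genes separated in this direction. With fewer libraries more genes separate: the share of all genes was 8.91%, 12% and 9.44% without replicate 1, 2 or 3 of G328V, and 11.9% and 9.61% without replicate 1 or 3 of WT.

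The members differed strongly among libraries of 1 group. Levels ranged over 10-fold within G328V for 4 members and within WT for 4 members. The pooled within-group SD of log2 CPM ran from 1.39 for Hey1 to 2.96 for Gata2, beside a median of 0.67 over all genes, and lay at the 70.7th to 90.4th percentile of all genes. The highest library was a G328V library for 6 of 8 members, namely replicate 1 for Tbx2, replicate 2 for Atoh8 and Tbx3, and replicate 3 for Msx2, Hey1 and Gata2. The lowest library was a WT library for 7 of 8. After centring each gene on its own mean, the 8 genes averaged 1.24, 1.41 and 1.11 on the log2 scale in the G328V libraries, against -1.58, -1.90 and -0.28 in the WT libraries. The averages of the 3 G328V libraries were close, although different members were highest in each.

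**Figure D4:**
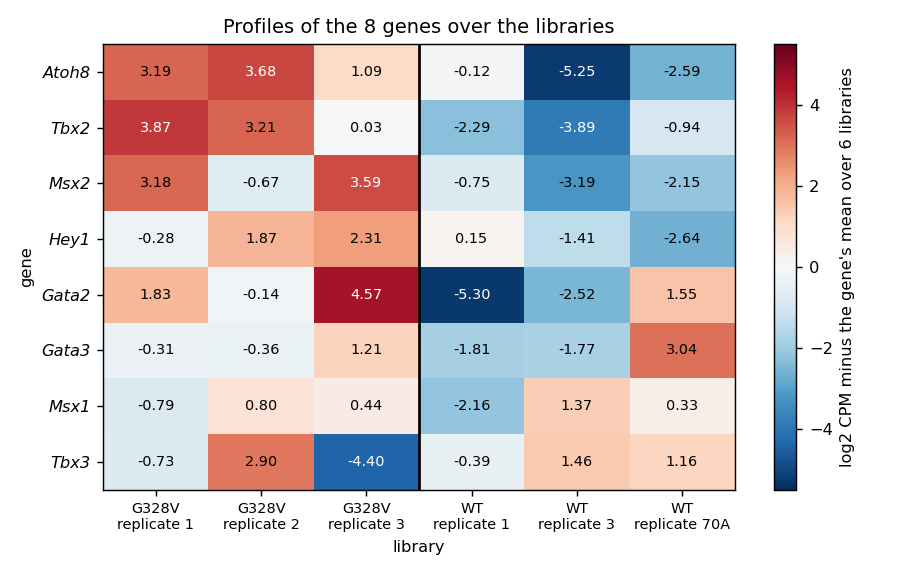
Log2 CPM of each gene minus its own mean over the 6 libraries, with G328V libraries left of the line and WT libraries right of it. Atoh8 and Tbx2 are both high in G328V replicates 1 and 2 (3.19 to 3.87), Msx2 in replicates 1 and 3 (3.18 and 3.59), and Gata2 in replicate 3 (4.57).

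Among the 28 pairs of members, Atoh8 and Tbx2 were the most alike, with a root mean square difference of 1.36 between their centred log2 profiles over 6 libraries. Tbx3 and Gata2 were the least alike, at 4.77. Gata3 was the member most like Gata2, at 2.27, while Msx1 and Msx2 stood at 3.08 and Tbx2 and Tbx3 at 3.59. Both Gata genes were highest in replicate 3 among G328V libraries and in replicate 70A among WT libraries. Both Tbx genes were lower in G328V replicate 3 than in the other G328V libraries, but they parted in both groups. In G328V replicate 1 Tbx2 was at its highest, 43.3 CPM, and Tbx3 at 3.81 CPM. In WT Tbx3 was at 4.83 to 17.4 CPM and Tbx2 at 0.188 to 1.53 CPM.

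Ratios within a library do not depend on how libraries are scaled, and they were computed per kilobase of exon for the 3 paralogue pairs after the levels had been seen. Tbx2 over Tbx3 was 20.8, 1.06 and 19.1 in the G328V libraries, against 0.224, 0.0197 and 0.197 in the WT libraries. Per kilobase, Tbx2 was above Tbx3 in each G328V library and below it in each WT library. In G328V replicate 2 this rests on the exon lengths of 3626 and 6624 bases, since Tbx2 had 3304 counts there and Tbx3 had 5714. Gata2 over Gata3 was 5.28, 1.39 and 12.3 in the G328V libraries, against 0.0964, 0.704 and 0.423 in the WT libraries. Here too each G328V library lay above 1 and each WT library below it. In WT replicate 3 this rests on 150 counts of Gata2 and 157 of Gata3. For both pairs the position against 1 depends on the exon lengths used, while the annotation behind the counts is not known. The limits on the counts of Gata3 and Tbx3 given above also hold for these ratios. Msx2 over Msx1 was 4.16, 0.0950 and 2.35 in G328V, against 0.705, 0.0108 and 0.0465 in WT, with overlapping groups, and it carries the unusual counts of Msx1. On the log2 scale the mean difference was 6.29 for the Tbx pair and 3.87 for the Gata pair (exact permutation p = 0.1 each, two-sided, the smallest that 3 against 3 allows, and 0.15 adjusted over the 3 pairs). For the Msx pair it was 3.79 (exact permutation p = 0.2, adjusted 0.2).

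**Figure D5:**
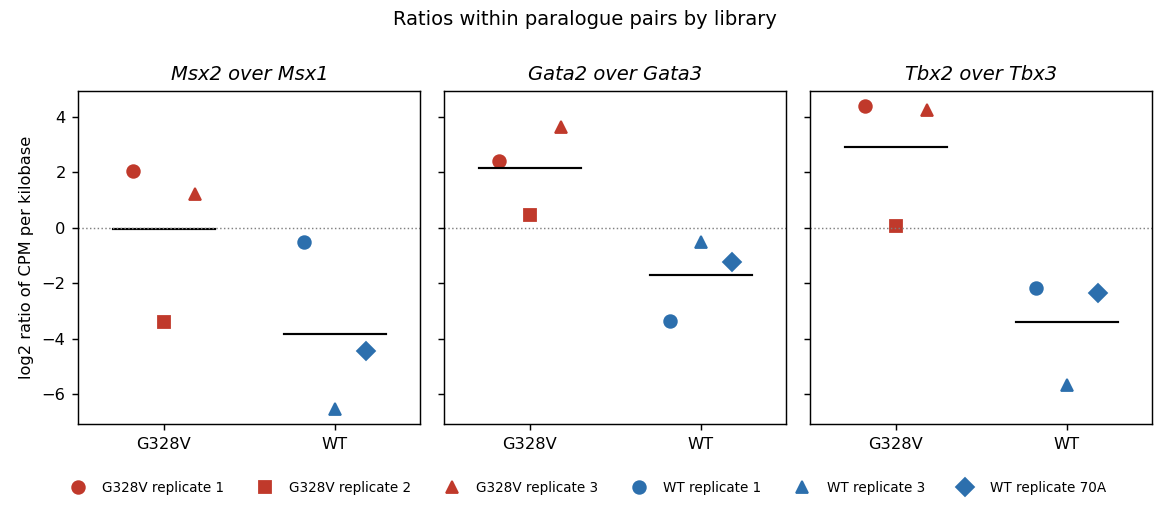
Log2 ratio of CPM per kilobase within each paralogue pair in the 3 G328V libraries (red, left) and the 3 WT libraries (blue, right), with black lines at group means and a dotted line at equal levels. For Gata2 over Gata3 and Tbx2 over Tbx3 all red points lie above 0 and all blue points below it, with G328V replicate 2 at 0.48 and 0.08.

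Genes with the most similar profiles were sought among 11548 genes with at least 1 CPM on average, by the same root mean square difference over 6 libraries. Nearest to Tbx2 were Apoe, a lipid carrier, at 0.98 (it also counts among the astrocyte markers below), and Synpo2, an actin-binding protein, at 1.10. Apoe was at 53.5, 32.5 and 1.25 CPM in the G328V libraries, against 0.886, 0.813 and 2.95 CPM in the WT libraries. Nearest to Msx2 were the ion channel gene Trpv2 (0.84) and Ehd3 (0.86), a gene of membrane traffic. Ehd3 was at 442, 15.8 and 903 CPM in G328V, against 21.8, 10.4 and 3.84 CPM in WT. Nearest to Atoh8 were Foxa1 (0.64), a forkhead factor of endoderm and ventral midline, and Cntnap2 (0.69). Hey1 was most like Nrn1 (0.48), which encodes neuritin, at 115, 177 and 434 CPM in the G328V libraries, against 110, 24.1 and 12.9 CPM in the WT libraries, and then like Lor (0.52). Gata2 was most like P4ha3 (0.70), a collagen hydroxylase subunit gene, and the homeobox gene Hoxa13 (0.92), and Gata3 like Ism1 (0.40) and Inpp4b (0.51). Msx1 was most like Dnase2a (0.24) and Uap1l1 (0.27), and Tbx3 like the kinase gene Nuak2 (0.39) and the forkhead gene Foxl2 (0.52). With 6 libraries and this many candidates, close profiles are descriptive.

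Other genes of the same families gave 0 edgeR calls among 11 tested of 25 listed, with 6 of 11 positive and a median of 0.32. Gata4, a zinc finger factor of heart and endoderm, was at 21.1, 4.56 and 14.6 CPM in the G328V libraries, against 0, 0.352 and 0.0460 CPM in the WT libraries. Every G328V library exceeded every WT library, the log2 difference was 6.64 ± 1.91 (SE) at an unadjusted edgeR p of 0.0125, and DESeq2 called it at an adjusted p of 0.00102. Tbx15 and Hes6 differed by 1.76 ± 0.94 and -0.56 ± 0.49 (SE). Gata4 was the single one of these 11 whose groups did not overlap, beside 5.25% of all genes with G328V higher and 4.45% with it lower.

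Of 20 other BMP-responsive transcription factor genes, 16 were tested, 12 were positive and edgeR called 0, with a median of 0.73. In 4 of 16 the G328V libraries all lay above the WT libraries, and in 1 they all lay below, beside 5.25% and 4.45% of all genes. For this list and those that follow, 49.7% of all genes were positive and DESeq2 called 0.569% as higher. Dlx2, a homeobox gene of ventral forebrain, differed by 5.30 ± 0.62 (SE), and DESeq2 called it. Id3, an inhibitor of helix-loop-helix factors, differed by 2.82 ± 0.85 (SE). Sox9, a factor of glia, crest and cartilage, was at 33.2, 80.1 and 43.0 CPM in the G328V libraries, against 109, 151 and 140 CPM in the WT libraries, a difference of -1.35 ± 0.38 (SE). Of 13 tested SMAD and feedback genes edgeR called 0 and DESeq2 called 3 as higher, Smad9, Bambi and Smad6, and 9 were positive with a median of 1.53. In 4 of these 13, the same 3 and Nog, all G328V libraries lay above the WT libraries, beside 5.25% of all genes. Of 14 tested BMP ligand and receptor genes 5 were positive, edgeR called 0, and DESeq2 called Acvr1 alone. Inhba and Gdf6 differed by -3.98 ± 1.39 and -4.55 ± 2.13 (SE).

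Notch pathway genes, which bear on Hey1, gave 0 edgeR and 0 DESeq2 calls among 11 tested, with 5 positive and a median of -0.24. Jag2, a Notch ligand, differed by 2.75 ± 1.13 (SE), and Rbpj, the DNA-binding partner of Notch, and Notch1 by -0.85 ± 0.41 and -1.55 ± 0.96 (SE). Hes1, another Notch target, differed by 0.32 ± 0.45 (SE), and Nrarp, also on this list, by -0.97 ± 0.89 (SE). Both are named after their values were seen. Among 6 tested partners of GATA factors edgeR called 0 and 3 were positive, with a median of 0.05. Groups did not overlap for Lyl1, with G328V higher, and for Zfpm2, with G328V lower. These are 1 of 6 each, beside 5.25% and 4.45% of all genes. Zfpm2 encodes a GATA-binding cofactor. It was at 9.02, 3.60 and 5.93 CPM in the G328V libraries, against 81.9, 70.9 and 32.8 CPM in the WT libraries. The difference was -3.32 ± 0.53 (SE), with an edgeR adjusted p of 0.997 and a DESeq2 adjusted p of 1.11e-05. DESeq2 called 1.05% of genes in either direction. Zfpm1, also on this list and named after its value was seen, differed by 0.43 ± 0.56 (SE). Tcf3 and Lyl1 differed by -0.52 ± 0.28 and 3.23 ± 1.91 (SE), Lyl1 at 0.131 CPM or less in every library. Dorsal neural tube and roof plate markers gave 0 calls by either tool among 6 tested, with 4 positive. Bmp6, Pax3 and Wnt1 differed by -2.40 ± 1.21, 1.92 ± 1.78 and 2.09 ± 2.23 (SE).

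Markers of other cell types that use these factors were read in the same libraries. Summed neural crest markers ran from 279 to 524 CPM in G328V and from 220 to 467 CPM in WT. Sox10 had 11185, 0 and 0 counts in the G328V libraries, against 7, 3 and 10 in WT. Tfap2b was at 190, 30.0 and 0.0218 CPM in the G328V libraries, against 0.0115 to 0.260 CPM in WT. Other crest markers followed other patterns: Sox9 was lower in each G328V library, as given above, Pax3 was at 37.4, 0.457 and 29.1 CPM in the G328V libraries, against 0.309, 1.60 and 15.8 CPM in the WT libraries, and Ets1 was at 66.6, 84.6 and 147 CPM in the G328V libraries, against 53.1, 115.8 and 204 CPM in the WT libraries. Mesenchymal and meningeal markers summed to 131 to 689 CPM in G328V and to 321 to 810 CPM in WT. Foxc1 was higher in each G328V library (64.4 to 112 CPM, against 15.6 to 36.8 CPM in WT). It was the 1 of 8 tested whose groups did not overlap, beside 5.25% of all genes with G328V higher. Of these 8, 6 were positive, while Col3a1 and Prrx1 differed by -2.81 ± 1.99 and -0.04 ± 0.71 (SE). Col3a1 was at 455 CPM in WT replicate 70A. Endothelial markers summed to 45.3 to 103 CPM in G328V and to 11.7 to 73.6 CPM in WT. Flt1 was at 35.3 to 93.1 CPM in G328V, against 4.83 to 43.7 CPM in WT, and Cdh5 at 0.0163 to 1.09 CPM in G328V, against 0.154, 12.1 and 38.7 CPM in the WT libraries. Kdr reached 17.4 CPM in G328V replicate 1, against at most 9.58 CPM in WT, and Tie1 had 0 counts except for 4 in WT replicate 1. Blood and microglia markers summed to 0.0498 to 2.14 CPM in G328V and to 0.0406 to 1.01 CPM in WT. Choroid plexus and ependymal markers summed to 0.868 to 3.48 CPM in G328V and to 0.222 to 12.8 CPM in WT. Neuron, astrocyte and oligodendrocyte lineage markers overlapped between groups, at 54.4 to 207, 167 to 434 and 14.5 to 304 CPM in the G328V libraries, against 59.5 to 101, 227 to 424 and 52.0 to 1047 CPM in WT. Sox2, a defining neural stem marker, was at 145 to 237 CPM in G328V and 134 to 179 CPM in WT. Prom1, another stem marker, was higher in each G328V library, at 133 to 288 CPM, against 7.92 to 68.8 CPM in WT. Of 9 tested stem markers these 2 alone were positive, and the median was -0.11. Sox9, also on the stem list, was lower in each G328V library. Groups thus did not overlap for 1 of 9 in each direction, beside 5.25% of all genes with G328V higher and 4.45% with it lower. Fabp7 and Nes were highest in WT replicate 1, at 1313 and 963 CPM, and lay at 2.64 to 65.1 and 105 to 273 CPM in G328V. The stem markers summed to 2396 to 3799 CPM in G328V and 2466 to 5455 CPM in WT. Much of these sums was Vim alone, at 1718 to 3189 CPM in G328V and 1987 to 2712 CPM in WT. The part of these cell types in the members' differences was not tested.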

How the data were processed

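Total RNA of 6 neurosphere samples, 3 G328V and 3 WT, was read after ribosomal depletion as stranded paired ends on a HiSeq4000. These details are from the labels' protocols, where a TruSeq kit and a Pico kit are both mentioned. The submitters' processing notes name mm10, FastQC 0.11.3, TopHat2 2.0.13 and Bowtie2 2.2.1. The deposited HTSeq table gives each gene symbol a raw count. For 23107 genes the authors also deposited estimated counts from Cufflinks, in fragments, rounded here before testing. No source used here gives the counting settings or the annotation.

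The main test was edgeR 4.0.16 in R 4.3.3: a robust, legacy quasi-likelihood fit without covariates on 14643 genes kept by filterByExpr (minimum count 10), scaled by TMM. Its F statistic gave the standard errors (SE). DESeq2 1.42.0, where 1030 genes had no adjusted p, and limma 3.58.1 (voom) were alternatives. The scripts were tested on simulated data. Profiles used log2 CPM with a prior count of 2. Exon lengths and positions are from GENCODE M21 (GRCm38), and 5 members had RefSeq promoters. Beside the members and Acvr1, the 2 nearest profiles of each member and the 3 genes with the smallest p of each list described in detail were named. Members, lists and alternatives were chosen with earlier results of these data known. There were about 1.96 counts per fragment, so counts are not independent molecules. The counting intervals take them as independent, so they are too narrow even for counting error, and they leave out replicate spread. At 115953495 or more counts per library, replicate spread limits most values.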

Additional observations from a re-analysis of the deposited data

How the results depend on the processing

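edgeR called 0 genes and 0 members with every scaling, filter and count table tried and without each library, and limma-voom called 0 with all libraries. At an unadjusted p under 0.05 and with all libraries, edgeR counted 594 genes and limma-voom 590. DESeq2 called 173 genes and 2 members. DESeq2 without 1 library, chosen after seeing the data, called 272 to 727 genes and 0 to 4 members, with 283 genes and 0 members without G328V replicate 1, 405 and 2 without G328V replicate 2, 329 and 2 without G328V replicate 3, 727 and 4 without WT replicate 1, 272 and 2 without WT replicate 3, and 374 and 2 without WT replicate 70A. Members with non-overlapping groups numbered 3 to 5 without single libraries, 5 without WT replicate 70A, where fewer than the original 3 was not possible. Of 168 alternative values of single members, 139 kept direction and call, 14 gained a call, all by DESeq2, and 15 turned sign, none of them a call. The sign of Msx1 turned with limma-voom (0.054), total-count scaling (0.0048, where the median of all genes was 0.12, so that Msx1 still lay below it), without G328V replicate 1 (0.19, DESeq2 0.18) and without WT replicate 3 (0.698, DESeq2 0.698). That of Gata3 turned with limma-voom (0.30) and without WT replicate 70A (2.18, DESeq2 2.15), and that of Tbx3 with limma-voom (-2.02) and without G328V replicate 2 (-2.57, DESeq2 -2.58). Without single libraries Msx1 ranged from -0.67 to 0.70, Gata3 from -1.90 to 2.18 and Tbx3 from -2.57 to 1.07. The cause was not tested. The replicate numbers 1 and 3 occur in both groups, and the labels do not say that they pair cultures. Same-numbered libraries correlated at 0.18 and 0.23 in their deviations from group means across genes. With a replicate block over these 4 libraries edgeR called 0 genes and 0 members, and Msx1, Gata3 and Tbx3 differed by 0.22, 2.25 and -3.12, each with the sign turned. Under this block Gata2 differed by 7.19 (unadjusted edgeR p of 0.000437) and Hey1 by 1.65 (0.356), while Msx2, Atoh8 and Tbx2 differed by 5.38, 5.003 and 5.10. With a block over 4 libraries, little residual spread is left to judge these p-values by. The fit also leaves out G328V replicate 2 and WT replicate 70A, so the block and that omission cannot be told apart. Without WT replicate 70A alone, Gata2 already differed by 6.59.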
